A study of Mus musculus with 6 samples.

Results

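Collagens are the main proteins of the extracellular matrix, and the collagen genes described here are those that remain when the chains typical of cartilage and tendon are set aside. The members were the genes of the deposited count table whose names consist of Col, a number, the letter a and a number, leaving out Col2a1, Col9a1, Col9a2, Col9a3, Col10a1, Col11a1, Col11a2, Col12a1 and Col14a1. This rule uses names only, and it gave 35 members among the 43346 genes of the table, with 9 collagen genes left out. Types I, III, V and VI and Col27a1 are made in tendon or cartilage as well, so the rule separates genes and not tissues. RNA-seq was made from limb bone (hindlimb and forearm) of C57BL/6 pups aged 1 day, with 3 libraries labelled Hdac3 CKO, a conditional knockout with Prx1, and 3 labelled wild type. Hdac3 encodes a histone deacetylase that works in corepressor complexes. Prx1 (Prrx1) enhancer lines are commonly chosen to express Cre recombinase in limb bud mesenchyme, whose descendants form bone, cartilage and tendon but not blood cells or muscle fibres. The labels give neither the alleles of the knockout nor any that wild type pups carry. Nor is it stated whether each library came from its own animal or litter, so the p-values speak of the variation among these 6 libraries, part of which may be technical.

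A collagen molecule is built of alpha chains wound into a helix, and some types are made of copies of 1 chain while others mix the products of different genes. Fibrillar collagens (types I, III and V, with the minor types XXIV and XXVII) form the banded fibrils of bone, skin and vessel walls, and type V starts and limits the growth of type I fibrils. Type IV makes the network of basement membranes, type VI makes beaded filaments around cells, and the remaining types decorate fibrils, anchor membranes or span the plasma membrane. In bone, osteoblasts lay down type I collagen as the scaffold that mineral later fills.

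Total counts per library were 46926855, 43389262 and 45119142 in Hdac3 CKO bone, against 50927978, 47392678 and 46156691 in wild type bone. Hdac3 itself had 31.8, 29.4 and 28.3 CPM in Hdac3 CKO bone, against 48.4, 47.4 and 50.3 CPM in wild type bone, so the labels fit its transcript, which was lower but still present (log2 fold change −0.71 ± 0.12 (SE), edgeR's quasi-likelihood test, adjusted p = 0.0289). CPM is the count scaled to the library size after TMM normalisation throughout. Hdac3 CKO library 3 and wild type library 3 stood apart by cartilage transcripts: Col2a1 reached 11502 and 5212 CPM there, and lay between 453 and 896 CPM in the other 4 libraries. Hdac3 CKO library 3 also differed from all others in Y-linked Ddx3y, at 48.1 CPM against at most 2.18 CPM elsewhere. Its X-linked Xist was at 19.3 CPM, against 700 to 2094 CPM elsewhere. By these transcripts it alone was of male type, which leaves sex unbalanced between the genotypes. Leaving out the cartilage-rich libraries removes it as well, and the part of sex in the values was not tested. Although bones were cleaned of soft tissue, 10 skeletal muscle markers summed to 34778 to 52308 CPM in Hdac3 CKO bone and 31292 to 36706 CPM in wild type bone.

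Among the 35 members, Col5a1 rose and Col6a5 fell in Hdac3 CKO bone, and the other 33 did not pass an adjusted p of 0.05 (edgeR's quasi-likelihood test, Benjamini-Hochberg adjustment over 20210 genes). Over all tested genes 226 passed, or 1.12%, of which 135 rose (0.668%) and 91 fell (0.450%). All 35 members passed the filter on low counts and were tested. The log2 fold change lay above 0 for 21 of 35 members with a median of 0.18, while 50.1% of all genes lay above 0 with a median of 0.00. After TMM, values of the genotypes did not overlap for 21 members, 13 higher and 8 lower in every Hdac3 CKO library. Over all tested genes such separation was seen in 22.5%, with 11.5% higher and 10.9% lower. After TMM the members' separation exceeds that background, but the background was not matched to the members' expression levels. Compared with total counts, TMM raised the values of every Hdac3 CKO library and lowered those of every wild type library. Separation was not counted again with total counts. In the deposited RPKM, which carry no TMM factor, Col4a2, Col5a2, Col7a1, Col20a1 and Col23a1 of the 13 higher members overlapped. All 8 lower members stayed lower there in every Hdac3 CKO library. The members also share libraries and cell sources and are not independent of each other. When libraries were scaled by total count alone, the median of all genes moved to −0.18, 17 members lay above 0 and 21 lay above that median. Of all calls, 59.7% were higher with TMM and 33.8% of 160 with total counts. The DESeq2 Wald test called 14 members, and 4.12% of all genes it tested, adding Col1a1, Col1a2, Col3a1, Col6a1, Col6a2, Col6a3 and Col8a1 on the higher side and Col6a6, Col13a1, Col22a1, Col24a1 and Col25a1 on the lower side. With both cartilage-rich libraries left out, edgeR called no gene at all, while 2240 genes had an unadjusted p under 0.05.

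**Figure D1:**
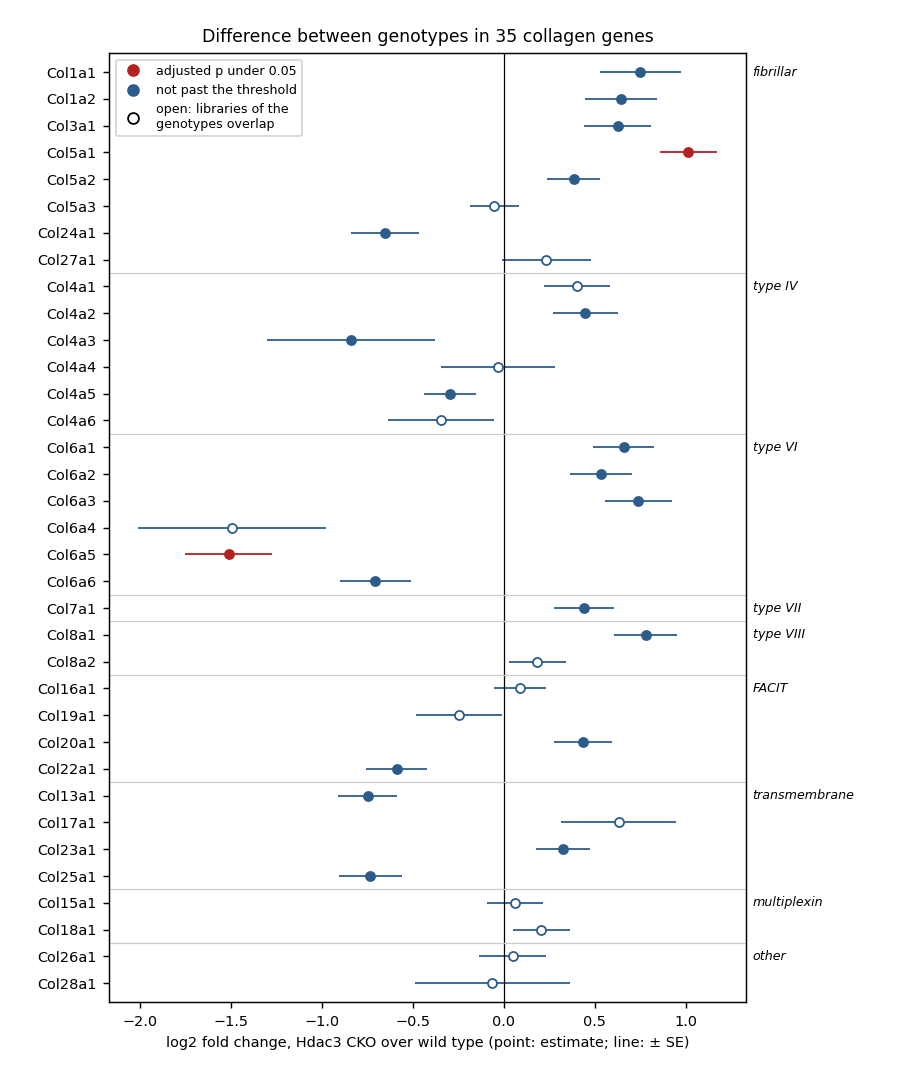
Log2 fold change of each member, Hdac3 CKO over wild type, with bars of 1 standard error from edgeR, grouped by collagen class; open points are genes whose genotypes overlap. Col5a1 at 1.01 and Col6a5 at −1.51 are the members that passed the test; the abundant fibrillar chains and Col6a1 to Col6a3 lie right of 0, and Col6a4 to Col6a6 lie left of it.

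The most abundant members were the fibrillar chains Col1a1, Col1a2 and Col3a1. Of the 8 fibrillar genes, 1 passed the test and rose, none fell, 5 were higher and 1 was lower without overlap, and the median log2 fold change was 0.50. Col5a1 (ENSMUSG00000026837, chr2:27886425-28039514 on mm10), the main chain of type V collagen, had 4221, 3751 and 3407 CPM in Hdac3 CKO bone, against 2008, 1865 and 1764 CPM in wild type bone. Every Hdac3 CKO library therefore lay well above every wild type library, with means of 3793 ± 409 CPM in Hdac3 CKO bone and 1879 ± 123 CPM in wild type bone (SD, n = 3 each). The fold was 2.02, or 1.01 ± 0.16 (SE) on the log2 scale, and edgeR's quasi-likelihood test gave an adjusted p of 0.0231. Leaving out 1 library at a time kept the log2 fold change between 0.92 and 1.09, but the call held only without Hdac3 CKO library 1, and the adjusted p otherwise reached at most 0.129. Without both cartilage-rich libraries the log2 fold change of Col5a1 was 1.04 with an adjusted p of 0.215. Antisense to Col5a1, 212 of its exon bases (2.50%) overlap other genes, and the strand setting of the counting is not given in the sources used here.

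Both chains of type I collagen stood highest by level. Col1a1 (ENSMUSG00000001506, chr11:94936224-94953042), which supplies most of the type I trimer, had 55680, 42624 and 36001 CPM in Hdac3 CKO bone, against 23530, 25236 and 31116 CPM in wild type bone. Its means were 44768 ± 10013 CPM in Hdac3 CKO bone and 26627 ± 3980 CPM in wild type bone (SD, n = 3 each), and the groups did not overlap. The log2 fold change of 0.75 ± 0.22 (SE) had an adjusted p of 0.165 in edgeR's test and did not pass. Col1a2, the partner chain, had 39868, 34106 and 28626 CPM in Hdac3 CKO bone, against 19508, 21460 and 24736 CPM in wild type bone, with a log2 fold change of 0.64 ± 0.20 and an adjusted p of 0.185. Both chains ranked the libraries in the same order: library 1 was highest in Hdac3 CKO bone and library 3 was highest in wild type bone. Osteoblast markers summed to 5789 to 9213 CPM in Hdac3 CKO bone and 3109 to 5616 CPM in wild type bone, mostly Spp1 and Ibsp, and 1 of 8 passed the test (Dmp1, log2 fold change 1.14). In Hdac3 CKO bone this sum was lowest in library 1 and highest in library 2, unlike type I. In wild type bone it was highest in library 3, like type I. The list did not move one way: Ibsp was at 1.21 without passing, and Sp7 was higher in every Hdac3 CKO library (0.38). Runx2 was lower in every Hdac3 CKO library (−0.44), and Bglap and Bglap2 overlapped at −0.23 and −0.43. Tendon markers summed to 1552 to 2160 CPM in Hdac3 CKO bone and 1114 to 1297 CPM in wild type bone, and 1 of 6 passed (Thbs4, 1.09), with Mkx at −0.51 and Kera at −0.21. The part of these cells in the type I values was not tested. In bulk bone, more cells of a type and more RNA per cell cannot be told apart.

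Col3a1, the chain of type III collagen in extensible tissues and healing bone, had 12719, 10841 and 10983 CPM in Hdac3 CKO bone, against 8135, 8173 and 6099 CPM in wild type bone. All Hdac3 CKO values were higher, and the log2 fold change of 0.62 ± 0.18 had an adjusted p of 0.164. Col5a2, the partner of Col5a1 in type V, had 2476, 2622 and 2229 CPM in Hdac3 CKO bone, against 1901, 1902 and 1815 CPM in wild type bone (0.38 ± 0.15, adjusted p = 0.273), so its groups separated with a smaller difference than that of Col5a1. The third type V chain, Col5a3, averaged 246 ± 15.3 CPM in Hdac3 CKO bone and 255 ± 29.4 CPM in wild type bone (SD, n = 3 each), and its groups overlapped (−0.05 ± 0.14). Of the minor fibrillar chains, Col24a1 had 46.2, 76.3 and 61.8 CPM in Hdac3 CKO bone, against 88.3, 91.6 and 110 CPM in wild type bone, and was lower in every Hdac3 CKO library (−0.65 ± 0.19, adjusted p = 0.149). Col27a1, which is also known from cartilage, had 156, 194 and 309 CPM in Hdac3 CKO bone, against 200, 151 and 211 CPM in wild type bone (0.23 ± 0.24). Its groups overlapped, and its highest value in each genotype was in the cartilage-rich library.

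**Figure D2:**
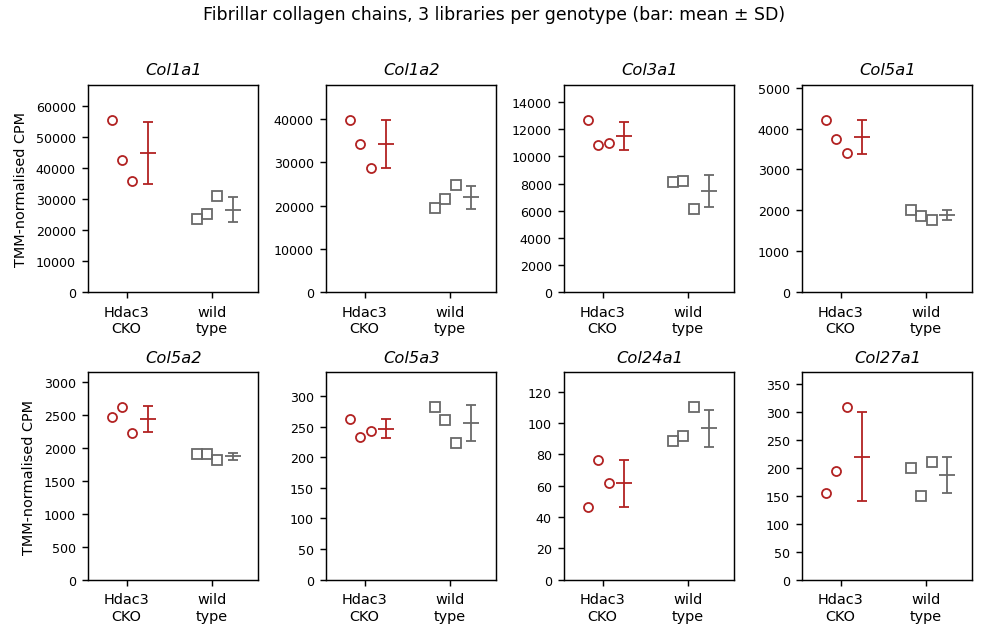
TMM-normalised CPM of the 8 fibrillar chains, 1 panel per gene with a linear axis from 0, points for the 3 libraries of Hdac3 CKO (left) and wild type (right), and a bar at the mean ± SD. For Col5a1 the 3 Hdac3 CKO libraries sit between 3407 and 4221 CPM, above wild type at 1764 to 2008 CPM; Col24a1 is the 1 fibrillar chain that sits lower in every Hdac3 CKO library.

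Type VI split into chains that sat higher and chains that sat lower in Hdac3 CKO bone. The classical molecule joins Col6a1 and Col6a2 with the large Col6a3 chain, and Col6a4, Col6a5 and Col6a6 are later-described chains similar to Col6a3. Of the 6 genes 1 passed the test and fell, 3 were higher and 2 lower without overlap, and the median log2 fold change was −0.09. Col6a3 had 2971, 2578 and 2546 CPM in Hdac3 CKO bone, against 1932, 1637 and 1286 CPM in wild type bone (0.74 ± 0.18, adjusted p = 0.104). Col6a1 had 2718, 2171 and 2238 CPM in Hdac3 CKO bone, against 1644, 1571 and 1305 CPM in wild type bone (0.66 ± 0.17, adjusted p = 0.110). Col6a2 had 2213, 1780 and 1821 CPM in Hdac3 CKO bone, against 1510, 1369 and 1141 CPM in wild type bone (0.53 ± 0.17, adjusted p = 0.196). Each of these chains was higher in all Hdac3 CKO libraries, without passing the test.

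Values of the later-described chains lay lower. Col6a5 (ENSMUSG00000091345, chr9:105856078-105960643) had 2.49, 2.51 and 1.98 CPM in Hdac3 CKO bone, against 7.48, 7.60 and 4.82 CPM in wild type bone, and the counts behind these values were 103, 107 and 85 in Hdac3 CKO bone, against 398, 392 and 237 in wild type bone. Its means were 2.33 ± 0.30 CPM in Hdac3 CKO bone and 6.63 ± 1.57 CPM in wild type bone (SD, n = 3 each), a fold of 0.351. On the log2 scale the change was −1.51 ± 0.24 (SE), and edgeR's quasi-likelihood test gave an adjusted p of 0.0235. Without 1 library at a time it ranged from −1.69 to −1.40, and the call was lost without Hdac3 CKO library 3, wild type library 1 or wild type library 2, at an adjusted p of at most 0.0970. Without both cartilage-rich libraries it was −1.59 with an adjusted p of 0.113. Col6a6, far more abundant, had 133, 92.9 and 112 CPM in Hdac3 CKO bone, against 190, 221 and 141 CPM in wild type bone, and was lower in every Hdac3 CKO library (−0.71 ± 0.19, adjusted p = 0.134). Col6a4 was scarce, with counts of 10, 22 and 13 in Hdac3 CKO bone, against 71, 65 and 20 in wild type bone (−1.49 ± 0.51, adjusted p = 0.224), and its groups overlapped. Markers of connective tissue fibroblasts summed to 890 to 1300 CPM in Hdac3 CKO bone and 1197 to 1529 CPM in wild type bone, and 2 of 8 fell (Dpp4 by 2.08 and Pi16 by 1.25 on the log2 scale). The other 6 did not pass. Of them, Twist2 was at 0.58, Pdgfra was lower in every Hdac3 CKO library (−0.21), and Dpt, Dcn, Lum and Cd34 overlapped. The part of those cells in the Col6a5 value was not tested.

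**Figure D3:**
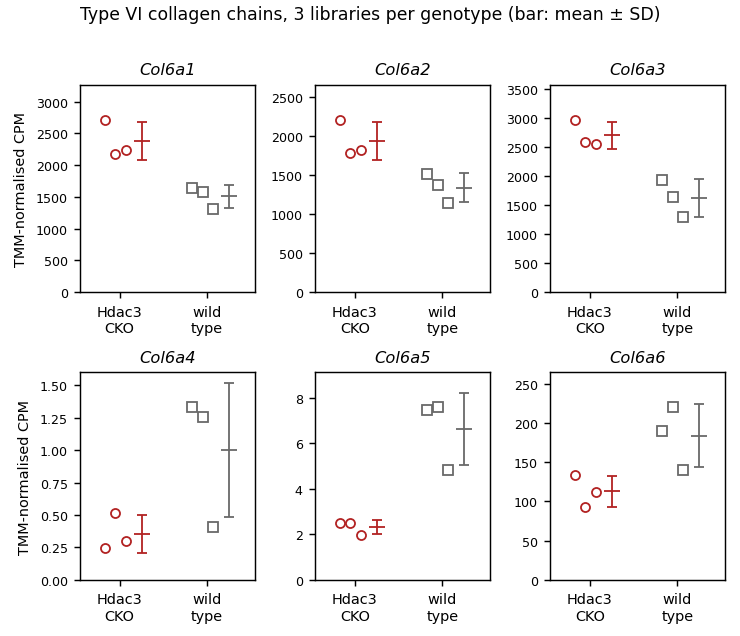
TMM-normalised CPM of the 6 type VI chains, 1 panel per gene with a linear axis from 0, points for the 3 libraries of Hdac3 CKO (left) and wild type (right), and a bar at the mean ± SD. Col6a1, Col6a2 and Col6a3 lie higher in every Hdac3 CKO library; Col6a5 and Col6a6 lie lower in every Hdac3 CKO library, and Col6a4 is low with overlap.

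The sequences before the gene starts are shown for Col5a1 and Col6a5, the members that passed the test, with Col3a1 and Col6a3 as abundant chains of the same classes that did not. Each is the 250 bases before a RefSeq gene start on GRCm38.p6, read on the strand of the gene. None of these printed windows holds exon bases of the GENCODE M21 annotation. Capitals mark a TATAAA or a GC box (GGGCGG, or CCGCCC on the other strand). The windows are chr2:27886175-27886424 (plus strand) for Col5a1, chr9:105960644-105960893 (minus) for Col6a5, chr1:45311288-45311537 (plus) for Col3a1 and chr1:90843972-90844221 (minus) for Col6a3.
Col5a1: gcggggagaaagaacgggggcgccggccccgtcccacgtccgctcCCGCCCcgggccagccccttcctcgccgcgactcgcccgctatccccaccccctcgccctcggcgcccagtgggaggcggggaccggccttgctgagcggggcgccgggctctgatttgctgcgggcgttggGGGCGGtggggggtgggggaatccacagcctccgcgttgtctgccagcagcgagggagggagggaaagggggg
Col6a5: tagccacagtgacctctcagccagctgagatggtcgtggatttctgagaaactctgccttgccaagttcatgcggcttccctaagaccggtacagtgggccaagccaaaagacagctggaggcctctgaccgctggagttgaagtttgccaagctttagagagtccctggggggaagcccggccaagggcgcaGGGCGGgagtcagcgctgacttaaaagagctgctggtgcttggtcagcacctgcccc
Col3a1: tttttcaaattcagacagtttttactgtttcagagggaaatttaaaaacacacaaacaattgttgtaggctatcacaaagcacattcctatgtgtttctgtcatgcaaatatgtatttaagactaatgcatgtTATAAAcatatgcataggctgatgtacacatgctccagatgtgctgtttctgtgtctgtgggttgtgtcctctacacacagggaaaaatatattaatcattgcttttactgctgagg
Col6a3: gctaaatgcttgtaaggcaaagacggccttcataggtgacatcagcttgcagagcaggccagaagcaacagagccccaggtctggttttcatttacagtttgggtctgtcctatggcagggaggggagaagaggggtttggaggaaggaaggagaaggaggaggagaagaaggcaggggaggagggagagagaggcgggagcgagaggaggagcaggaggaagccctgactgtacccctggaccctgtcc

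Col5a1 and Col3a1, both fibrillar, differed in base composition before the start, with 76.4% G and C in the Col5a1 window and 35.2% in the Col3a1 window. Type VI windows held 58.8% G and C for Col6a5 and 57.2% for Col6a3. GC boxes numbered 2 in the Col5a1 window and 1 in the Col6a5 window, TATAAA occurred once in the Col3a1 window at position −117, and none of the motifs searched was in the Col6a3 window. A start window was matched for 30 members, some with several, giving 32 of 32851 windows. Searched on both strands, the GC box was in 19 of the 32 member windows (59.4%) and 32.7% of all windows. CCAAT was in 11 member windows (34.4%) and 33.9% of all windows, and TATAAA in 3 (9.38%) and 12.4% of all. Many of the member windows hold exon bases, and those of Col20a1, Col4a1, Col4a2 and Col6a4 consist of them entirely (250 of 250 bases). These are matches of letters, and no binding was measured.

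The 6 type IV genes gave no call, with 1 higher and 2 lower without overlap and a median log2 fold change of −0.16. Col4a1, of the network found in all basement membranes, had 2489, 1683 and 1951 CPM in Hdac3 CKO bone, against 1563, 1695 and 1380 CPM in wild type bone, and its groups overlapped (0.40 ± 0.18, adjusted p = 0.346). Col4a2, its partner, had 1399, 955 and 1020 CPM in Hdac3 CKO bone, against 842, 888 and 746 CPM in wild type bone (0.45 ± 0.18, adjusted p = 0.292). Both were highest in Hdac3 CKO library 1, where 8 endothelial markers also summed highest, at 867 CPM, and none of the 8 passed the test. Marker sums of skeletal muscle, tendon and macrophages were highest in that library too, so the match is not particular to endothelium. The part of vessels in the Col4a1 and Col4a2 values was not tested. X-linked Col4a5 had 17.8, 17.4 and 18.4 CPM in Hdac3 CKO bone, against 22.4, 24.7 and 18.6 CPM in wild type bone, lower in each Hdac3 CKO library by a margin smaller than the spread of wild type (−0.30 ± 0.15, adjusted p = 0.378). Col4a3, Col4a4 and Col4a6, chains of specialised basement membranes, were scarce, and Col4a4 and Col4a6 overlapped at log2 fold changes of −0.03 and −0.34. Col4a3 was the lowest of all members, with counts of 8, 5 and 8 in Hdac3 CKO bone, against 17, 17 and 12 in wild type bone, and 5.65% of its exon bases overlap C430014B12Rik on the opposite strand.

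Type VIII chains form networks beneath endothelia, and Col8a1 came close to the threshold. It had 102, 127 and 143 CPM in Hdac3 CKO bone, against 86.3, 69.3 and 61.7 CPM in wild type bone, without overlap (0.78 ± 0.17, adjusted p = 0.0721). Without Hdac3 CKO library 1 it passed, at an adjusted p of 0.0263 in edgeR's test. Col8a2, its partner, had 203, 145 and 156 CPM in Hdac3 CKO bone, against 165, 136 and 142 CPM in wild type bone, with overlap (0.18 ± 0.16). Col7a1, which forms the anchoring fibrils that hold epidermis to dermis, had 18.4, 26.3 and 19.8 CPM in Hdac3 CKO bone, against 15.3, 15.1 and 17.1 CPM in wild type bone (0.44 ± 0.17, adjusted p = 0.266). Transmembrane Col17a1 of hemidesmosomes had 3.46, 6.77 and 4.63 CPM in Hdac3 CKO bone, against 3.08, 2.15 and 4.37 CPM in wild type bone, with overlap (0.63 ± 0.32). Epidermis markers summed to 19.6 to 47.2 CPM in Hdac3 CKO bone and 10.8 to 24.1 CPM in wild type bone, and Hdac3 CKO library 2 was highest for them, for Col7a1 and for Col17a1. None of the 8 epidermis markers passed the test, and the part of skin in these values was not tested.

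Of the other membrane-spanning collagens, Col13a1 and Col25a1 were lower and Col23a1 was higher in each Hdac3 CKO library, without passing the test. Col13a1, which lies at cell adhesions and the neuromuscular junction, had 29.2, 28.1 and 25.9 CPM in Hdac3 CKO bone, against 39.6, 42.0 and 58.1 CPM in wild type bone (−0.75 ± 0.16, adjusted p = 0.0697). Col25a1, required for motor innervation of muscle, had 14.9, 20.4 and 22.4 CPM in Hdac3 CKO bone, against 34.6, 28.5 and 33.1 CPM in wild type bone (−0.73 ± 0.17, adjusted p = 0.0881). The fourth transmembrane chain, Col23a1, had 65.2, 52.1 and 52.2 CPM in Hdac3 CKO bone, against 39.7, 43.8 and 51.9 CPM in wild type bone, a separation of less than 1 CPM between the nearest libraries (0.32 ± 0.15, adjusted p = 0.354). FACITs, short for fibril-associated collagens with interrupted helices, showed both directions. Col22a1, found at the muscle-tendon junction, had 183, 196 and 156 CPM in Hdac3 CKO bone, against 232, 245 and 327 CPM in wild type bone, lower in every Hdac3 CKO library (−0.59 ± 0.17, adjusted p = 0.149). None of 10 skeletal muscle markers passed the test, and their median log2 fold change was 0.36. Col20a1 had 22.5, 17.1 and 21.4 CPM in Hdac3 CKO bone, against 13.1, 15.6 and 16.4 CPM in wild type bone (0.43 ± 0.16, adjusted p = 0.254).

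For the remaining 6 members the groups overlapped and the log2 fold changes lay between −0.25 and 0.21. Col16a1, a FACIT found in many connective tissues and the most abundant of these genes, had 715, 614 and 682 CPM in Hdac3 CKO bone, against 684, 579 and 630 CPM in wild type bone (0.09 ± 0.14). Col19a1, a scarce FACIT, had 2.64, 3.81 and 4.67 CPM in Hdac3 CKO bone, against 4.17, 4.59 and 4.43 CPM in wild type bone (−0.25 ± 0.24). Multiplexins are basement membrane collagens that carry glycosaminoglycan chains, and Col18a1 is the source of endostatin. Col15a1 had 392, 288 and 316 CPM in Hdac3 CKO bone, against 328, 338 and 289 CPM in wild type bone (0.06 ± 0.15). Col18a1 had 280, 193 and 221 CPM in Hdac3 CKO bone, against 204, 204 and 194 CPM in wild type bone (0.21 ± 0.16). In both, Hdac3 CKO library 1 was highest, as for Col4a1 and Col4a2. Col26a1 had 61.6, 40.2 and 38.0 CPM in Hdac3 CKO bone, against 44.0, 47.1 and 44.2 CPM in wild type bone (0.05 ± 0.18). Scaling by total count turned the log2 fold changes of Col8a2, Col15a1, Col16a1 and Col26a1 to below 0. Col28a1, a chain of peripheral nerve, had 1.33, 2.66 and 5.39 CPM in Hdac3 CKO bone, against 3.66, 3.53 and 2.62 CPM in wild type bone. In the library where it was highest, Hdac3 CKO 3, 7 Schwann cell markers also summed highest, at 430 CPM, and none of the 7 passed the test. Cartilage markers were highest in that library too, at 14952 CPM, so the match is not particular to nerve. The part of nerve in the Col28a1 values was not tested.

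**Figure D4:**
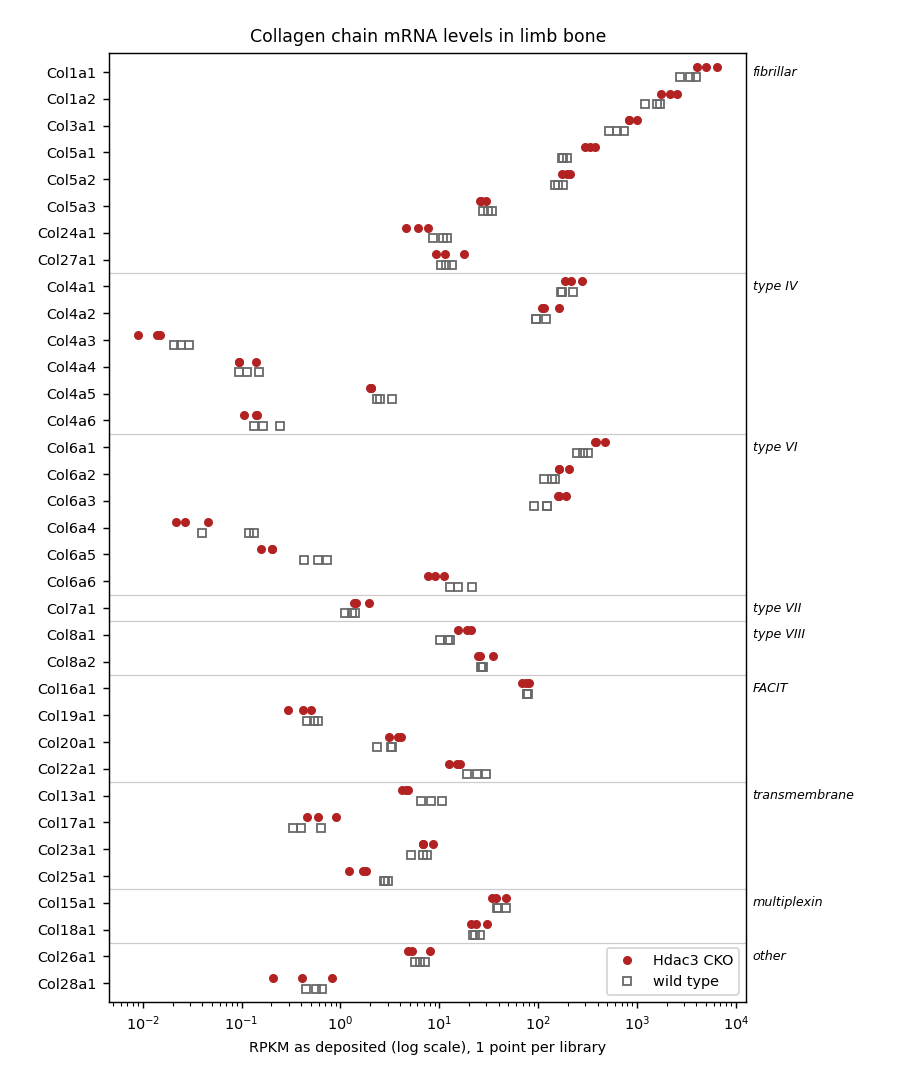
Deposited RPKM of each member on a log axis, 1 point per library, grouped by collagen class, with Hdac3 CKO as filled circles above wild type as open squares. Members span from Col1a1, at a mean of 4276 RPKM over all libraries, to Col4a3 at 0.0187 RPKM.

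By length-scaled level (RPKM, mean of all libraries), Col1a1 led at 4276, followed by Col1a2 at 1820, Col3a1 at 760, Col6a1 at 348 and Col5a1 at 261, while Col4a3 was lowest at 0.0187. The gene length in the table is over 1.5 times that of the transcript with the longest coding sequence in 7 members. Among them are Col1a2 (12136 against 5348 bases), Col3a1 and Col6a2, so RPKM may understate these beside Col1a1. Among the 18 members of higher level, from 13.0 RPKM up, 15 had a log2 fold change above 0, with a median of 0.42. Of the 17 members of lower level, 6 lay above 0, with a median of −0.25. Spearman's rho between level and log2 fold change was 0.68 across the 35 genes, which share the same 6 libraries and are not independent replicates.

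Several members lie next to each other in the genome. Col3a1 and Col5a2 lie tail to tail on chromosome 1 with a gap of 24614 bases and had log2 fold changes of 0.62 and 0.38, neither passing the test. Col4a1 and Col4a2 start head to head, their annotated ends overlapping by 22 bases (0.40 and 0.45). On chromosome 9 Col6a6, Col6a5 and Col6a4 follow each other with gaps of 27917 and 28810 bases, at −0.71, −1.51 and −1.49.

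Ratios per length were compared for 5 pairs of chains. The lengths are those of the table, over 1.5 times the transcript with the longest coding sequence for Col1a2, Col3a1 and Col6a2. Ratios with these chains on top may therefore be understated and are not proportions of chains. The comparison between genotypes does not depend on length. Col1a2 to Col1a1 was 0.387, 0.433 and 0.430 in Hdac3 CKO bone, against 0.448, 0.460 and 0.430 in wild type bone, and the groups overlapped (exact permutation p = 0.3, two-sided). Col4a2 to Col4a1 was 0.579, 0.584 and 0.539 in Hdac3 CKO bone, against 0.555, 0.540 and 0.557 in wild type bone (exact permutation p = 0.4). For Col6a2 to Col6a1 the values were 0.428, 0.431 and 0.428 in Hdac3 CKO bone, against 0.483, 0.458 and 0.460 in wild type bone, lower in 3 of 3 Hdac3 CKO libraries by 0.12 on the log2 scale (exact permutation p = 0.1, the smallest that 3 against 3 allows; adjusted over 5 ratios, 0.5). Col5a1 to Col1a1 was 0.0586, 0.0680 and 0.0731 in Hdac3 CKO bone, against 0.0660, 0.0571 and 0.0438 in wild type bone, with overlap (exact permutation p = 0.2, adjusted 0.5). Col3a1 to Col1a1 was 0.153, 0.170 and 0.204 in Hdac3 CKO bone, against 0.231, 0.217 and 0.131 in wild type bone, also with overlap (exact permutation p = 0.8).

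Together the 35 members took 11.4%, 10.3% and 8.91% of all counts in Hdac3 CKO bone, against 6.82%, 7.44% and 7.88% in wild type bone, without overlap. Col1a1 and Col1a2 alone took 8.41%, 7.53% and 6.16% in Hdac3 CKO bone, against 4.50%, 5.08% and 5.95% in wild type bone. The 95% Wilson interval of the members' share was at most ± 0.00909 percentage points, which covers counting error only. Fibrillar chains made up 87.1%, 87.5% and 85.1% of the members' summed RPKM in Hdac3 CKO bone, against 82.4%, 83.7% and 87.1% in wild type bone, with overlap. Type VI made up 7.21%, 7.31% and 8.41% in Hdac3 CKO bone, against 9.34%, 8.28% and 6.19% in wild type bone. Type IV made up 3.64%, 3.08% and 3.90% in Hdac3 CKO bone, against 4.55%, 4.68% and 3.53% in wild type bone. The fibrillar, type VI and type IV shares thus overlapped, while those of several minor classes did not. FACITs made up 0.825%, 0.915% and 1.09% in Hdac3 CKO bone, against 1.64%, 1.41% and 1.48% in wild type bone. Transmembrane chains made up 0.125%, 0.145% and 0.158% in Hdac3 CKO bone, against 0.250%, 0.244% and 0.288% in wild type bone. Multiplexins made up 0.637%, 0.569% and 0.715% in Hdac3 CKO bone, against 1.02%, 0.994% and 0.811% in wild type bone, and Col26a1 with Col28a1 were lower in every Hdac3 CKO library too. Shares of 1 pool depend on each other, so a smaller share is not a lower level.

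**Figure D5:**
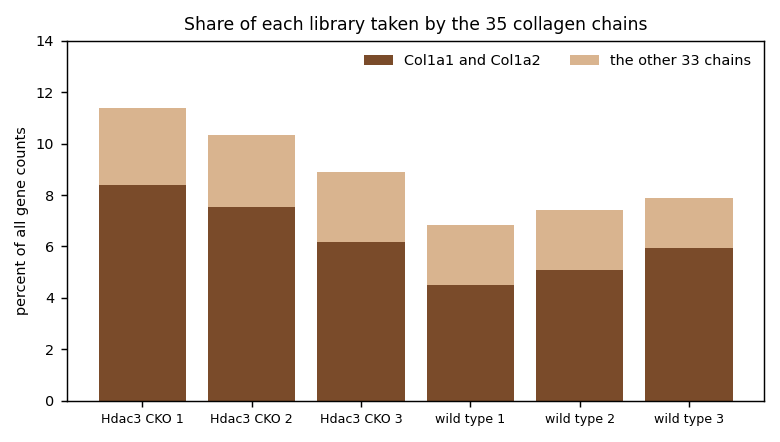
Stacked bars give the percent of all gene counts taken by Col1a1 and Col1a2 (dark) and by the other 33 members (light) in each library. The Hdac3 CKO libraries lie at 8.91% to 11.4% for the members, above wild type at 6.82% to 7.88%.

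Genes that act on collagens are given from lists by role. For reference, 0.668% of all tested genes rose, 0.450% fell and 22.5% separated without overlap. Of 24 genes for folding and modification 23 were tested, 3 rose and none fell, and the median log2 fold change was 0.23. Serpinh1, the collagen chaperone of the endoplasmic reticulum, had 3195, 2869 and 2682 CPM in Hdac3 CKO bone, against 1172, 1237 and 1336 CPM in wild type bone (1.22 ± 0.15, adjusted p = 0.0139). The prolyl hydroxylase subunits P4ha1 (0.95 ± 0.13) and P4ha2 (0.75 ± 0.13) also rose. A further subunit, P4ha3, was lower in every Hdac3 CKO library without passing the test (−0.56 ± 0.17). Of 16 genes of procollagen processing, assembly and crosslinking 14 were tested and 1 rose, Fn1, the fibronectin on which collagen fibrils assemble (1.13 ± 0.15, adjusted p = 0.0153), while Loxl2, a lysyl oxidase, was at 0.55 without passing. Among 10 collagen receptors tested 1 rose, the collagen uptake receptor Mrc2 (0.97 ± 0.13), which the degradation list holds too, and Lair1, an inhibitory receptor of immune cells, was at 0.91 without passing. In that list of 8 genes the membrane collagenase Mmp14 rose (0.78 ± 0.13), beside Mrc2. The neutrophil collagenase Mmp8 fell by 2.86 on the log2 scale. None of 15 basement membrane partners of type IV collagen passed the test, with a median log2 fold change of 0.18, and Hspg2 (perlecan) and the laminin chain Lamb2 were at 0.58 and 0.48. The 9 collagen genes left out by name, those of cartilage and tendon, gave no call, 8 above 0 and a median of 0.29, and 1 of them separated without overlap. Macrophage markers rose in 5 of 6 genes, summing to 382 to 490 CPM in Hdac3 CKO bone and 199 to 240 CPM in wild type bone, while erythroid markers summed to 169 to 213 CPM in Hdac3 CKO bone and 264 to 435 CPM in wild type bone, with 2 of 8 falling and a median log2 fold change of −0.998. The part of blood cells in the values of these lists and of the members was not tested.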

How the data were processed

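The members, lists and tests were chosen with earlier results of these data known. The authors deposited whole-number counts per gene and RPKM values (reads scaled to gene length and library total), for 3 Hdac3 CKO and 3 wild type libraries. Per the submitters' processing notes, the tools were TopHat2 2.1.0, bcl2fastq 1.8.4, featureCounts and Subread, with the mm10 build. How strand and multiply matching reads were handled, and which annotation was counted, is not given in the sources used here, so overlapping or antisense genes may share reads. Of the reads behind the RPKM scaling, 72.1% to 87.0% lay in genes.

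Replicates were numbered in the order of their records. Counts (43389262 to 50927978 per library) were filtered with filterByExpr, which left 20210 genes holding 99.9% of counts, normalised by TMM and compared with edgeR 4.0.16 (R 4.3.3), using its quasi-likelihood test with robust moderation, no covariate, 4 residual degrees of freedom and Benjamini-Hochberg adjustment over all genes tested. A gene rose or fell at an adjusted p under 0.05. The test was run first on simulated data. A log2 fold change carries its standard error from that fit. Ratios of chains used counts per length, with deposited RPKM as an alternative, and exact permutation of library labels. Values per library are given for Col1a1, Col1a2, Col3a1 and Col5a1, for members that passed, and in each class for the 3 members with the smallest p and the most abundant one; of each pathway list the 2 genes with the smallest p and those that passed are named. The other values given were chosen after they were seen. The 15 alternatives included DESeq2 1.42.0, limma 3.58.1 on log2(RPKM + 1) and log2(RPKM + 0.1), no filter, other scaling and leaving out libraries. Gene positions come from the deposited table (mm10). Exon overlaps come from GENCODE M21 on the same assembly, and start windows from RefSeq on GRCm38.p6.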

Additional observations from a re-analysis of the deposited data

How the results depend on the processing

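With 3 libraries a genotype, the smallest exact p for a single ratio is 0.1, and leaving out 1 library ended the call of Col5a1 in 5 of 6 cases and that of Col6a5 in 3 of 6. Against 226 genes (1.12%) and 2 members called, edgeR without the filter on low counts called 450 genes (1.46%) and 6 members (Col5a1, Col6a3, Col6a5, Col8a1, Col13a1 and Col25a1), DESeq2 called 828 genes (4.12%) and 14 members, and limma on log2(RPKM + 1) called 131 genes (0.648%) and 0 members. With a pseudocount of 0.1, limma also called 0 members. A covariate for cartilage markers left 0.599% of the 20210 genes called, with Col5a1 and Col6a5 among them. Leaving out both cartilage-rich libraries left 0 genes (0%) and 0 members by edgeR, with 2240 genes at an unadjusted p under 0.05; the cause was not tested, but fewer libraries entered the fit. Leaving out 1 library at a time gave 26 to 202 genes (0.127% to 0.973%) and 0 to 3 members. The log2 difference of the Col3a1 to Col1a1 ratio, −0.10, ranged from −0.36 to 0.0494 on leaving out 1 library.

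Over the 35 members and 15 alternatives, 471 values kept direction and side of the threshold, 18 passed it where the reported value had not, 14 lost it and 22 changed sign. With total counts in place of TMM the log2 fold changes were −0.00863 for Col8a2, −0.10 for Col16a1, −0.13 for Col15a1 and −0.15 for Col26a1. With RPKM and a pseudocount of 1 they were −0.0380 for Col16a1, −0.0735 for Col15a1 and −0.0946 for Col26a1, and with 0.1 they were −0.0385, −0.0753 and −0.11 in that order. Leaving out 1 library gave −0.0870 to 0.15 for Col15a1, −0.22 to 0.18 for Col26a1, −0.71 to 0.28 for Col28a1, −0.14 to 0.0253 for Col5a3, −0.0950 to 0.42 for Col27a1 and −0.24 to 0.26 for Col4a4. Without both cartilage-rich libraries Col27a1 was at −0.00180. The causes of these sign changes were not tested. No paired analysis was possible because the labels give no replicate numbers shared between the genotypes.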
